A study of Mus musculus with 30 samples.

Results

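The livers compared were those of male C57Bl/6NCr mice at 9 weeks of age, before any high-fat diet (HFD): 3 offspring of undernourished dams (UN, replicates 4, 5 and 6) and 3 offspring of normally nourished dams (NN, replicates 1, 2 and 3), 6 of the 30 arrays of the series. UN dams had received 40% fewer calories in late pregnancy, and their pups were raised by NN dams, so that both groups shared nursing, regular chow, sex and strain after birth. The comparison asks which liver transcripts already differ between UN and NN before HFD. It is a baseline for 4 UN and 4 NN livers at 17 weeks on HFD and for the 22-week groups, also on HFD. The 22-week groups held 4 livers each. They were UN and NN given vehicle (UN-Veh and NN-Veh) or tauroursodeoxycholic acid, TUDCA (UN-TU and NN-TU). Each array held the liver RNA of 1 animal. The labels do not say whether the 3 animals of a group came from separate litters, so that the p-values below measure the spread between these animals only.

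Undernutrition before birth lowers the supply of nutrients to the fetus, and offspring of such pregnancies are prone to fatty liver and insulin resistance when they later meet a rich diet. The liver makes fatty acids and cholesterol under the control of the SREBP factors, stores triglyceride in droplets coated by perilipins and CIDE proteins, and burns fatty acids in mitochondria and peroxisomes. Pulses of growth hormone act through STAT5 and set the male pattern of liver genes, while the circadian clock, glucocorticoids, feeding and protein folding stress each drive their own sets of genes. These pathways were the gene lists described.

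The deposited values were log2 signals per probe set, on which a difference of 1 is a 2-fold difference. Signals ranged from 1.17 to 12.89 and the median of an array from 4.16 to 4.19, and any pair of the 6 arrays correlated at 0.987 to 0.992 across probe sets. NN replicate 1 correlated least with the other arrays (median 0.988, against 0.990 to 0.992 for the rest). Differences are given as UN minus NN with their standard error (SE) from limma, fitted to the 25341 probe sets named by a gene, of which the 22180 genes are each described by their brightest probe set. A 95% confidence interval reached 0.29 to either side of the difference at the median.

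No liver gene passed the test after adjustment for all probe sets. At a Benjamini-Hochberg adjusted p under 0.05, limma called 0 of 25341 probe sets (0%), and the smallest adjusted p was 0.9999. The methods' analysis of variance called 0 as well. At an unadjusted p under 0.05 limma counted 914 probe sets, 444 higher and 470 lower in UN. Counted over genes, 391 (1.76%) were higher and 392 (1.77%) were lower in UN at this level. In 927 genes (4.18%) all 3 UN animals lay above all 3 NN animals, and in 1080 genes (4.87%) they lay below. The differences themselves were narrow. Of the named probe sets 99.4% lay within 0.5 of 0 on the log2 scale, and 143 lay beyond. The values below therefore describe these 6 animals, and with 3 against 3 an exact permutation test cannot go below p = 0.1.

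**Figure D1:**
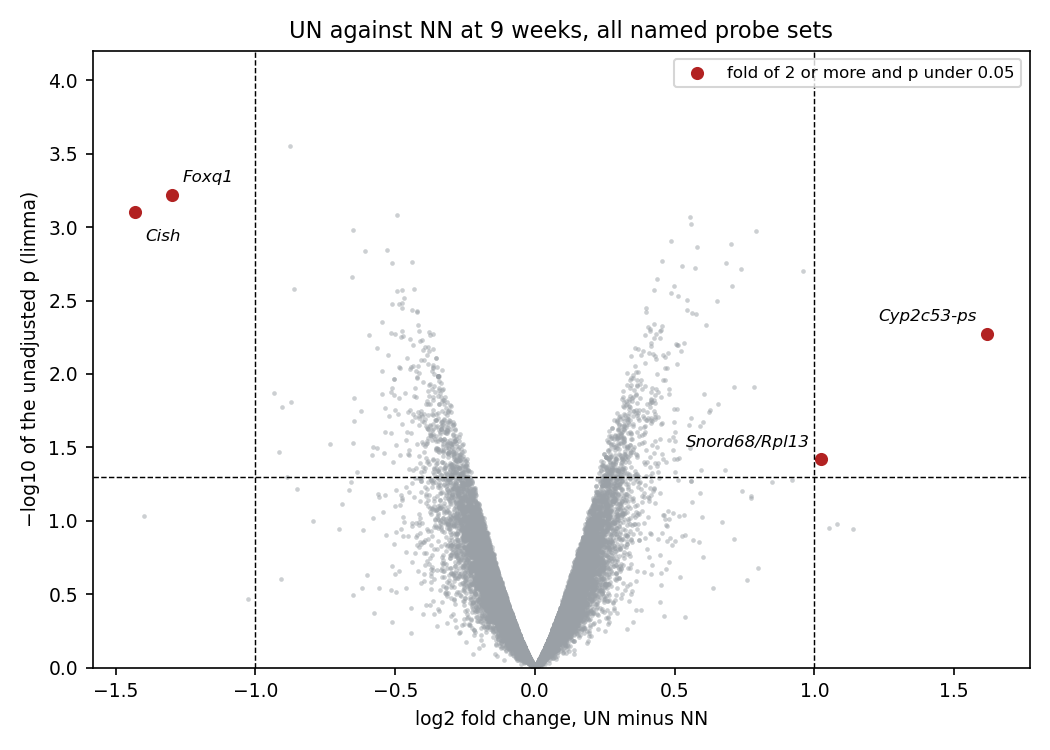
All 25341 named probe sets at 9 weeks, with the log2 fold change of UN minus NN across and -log10 of the unadjusted limma p upward. Broken lines mark a fold of 2 and p of 0.05; the 4 probe sets past both are red, 2 lower and 2 higher in UN, and none of the points passed an adjusted p of 0.05.

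The thresholds of the study asked for a 2-fold difference in either direction together with an unadjusted p under 0.05. The study took this p from an analysis of variance, whereas limma gave it here, so that the counts are not the study's own. With the methods' analysis of variance 2 named probe sets passed. With limma the thresholds were passed by 2 probe sets lower in UN (0.00789%) and 2 higher (0.00789%). Foxq1, a forkhead transcription factor gene on chromosome 13 (31558170 to 31560976, GRCm38), had log2 signals of 6.76, 6.66 and 6.18 in the UN livers, against 7.26, 7.84 and 8.40 in the NN livers. Every UN value lay below every NN value. The difference was -1.30 (SE 0.26, 95% interval -1.88 to -0.72, unadjusted p = 0.000603), a level 2.46-fold lower in UN. A dimmer Foxq1 probe set gave a difference of -0.04 (SE 0.11).

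Cish, whose product is induced by STAT5 and damps growth hormone and cytokine signalling, passed with the dimmer of its probe sets. This probe set read 4.79, 3.89 and 3.78 in UN, against 5.01, 5.73 and 6.01 in NN, a difference of -1.43 (SE 0.30, unadjusted p = 0.000789). The groups did not overlap, although UN replicate 4 came within 0.3 of the lowest NN animal. The brighter Cish probe set read 5.08, 4.94 and 4.67 in UN, against 5.34, 5.12 and 4.85 in NN, and here the groups overlapped, with a difference of -0.20 (SE 0.16). Both probe sets had the same sign and their sizes disagreed.

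On the higher side, Cyp2c53-ps, a pseudogene of the cytochrome P450 Cyp2c cluster on chromosome 19, read 4.75, 5.91 and 5.11 in UN, against 2.62, 3.63 and 4.68 in NN. The groups did not overlap, but the NN animals were spread over about 4-fold. The difference was 1.62 (SE 0.45, unadjusted p = 0.00534). Close Cyp2c copies can share probes with it. The other probe set is shared by the small nucleolar RNA Snord68, its host gene Rpl13 and Rpl13-ps6. Its values cannot be assigned to 1 of them. It read 7.83, 7.37 and 7.57 in UN, against 5.36, 7.49 and 6.85 in NN. The UN animals lay at the top of the NN range and overlapped it through NN replicate 2. The difference of 1.02 (SE 0.43, unadjusted p = 0.0382) became 0.42 without NN replicate 1, the low animal.

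Small nucleolar RNAs guide chemical changes of ribosomal RNA, and 2 more of them were low in that animal. Snord111, named after its values were seen, read 8.76, 8.84 and 8.94 in UN, against 5.71, 8.90 and 8.53 in NN. Snord1b, named likewise, read 8.64, 8.69 and 8.76 in UN, against 5.80, 8.73 and 8.40 in NN. Their differences of 1.14 and 1.05 exceeded 2-fold without an unadjusted p under 0.05. Over all 73 small nucleolar RNA genes the median difference was 0.07, with 4 higher and 1 lower at an unadjusted p under 0.05. At this level 1.76% of all genes were higher and 1.77% lower. NN replicate 1 was the highest animal in 25 of the 73 (34.2%, against 19.8% of all genes) and the lowest in 16 (21.9%, against 21.6%), whereas NN replicate 3 was the lowest in 41 (56.2%). A further 3 genes lay beyond 2-fold without an unadjusted p under 0.05: Rgs16 (-1.03), Gbp11 (-1.40) and the olfactory receptor gene Olfr1454 (1.08), the last named after its value was seen. The sign for Rgs16 rests on NN replicate 2, without which its difference was 0.52.

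The genes with the smallest p among the brighter probe sets were taken next, 12 in each direction, and in all 24 the groups did not overlap, which their choice by p favours. Abcd2 had the smallest p of all named probe sets. It encodes a transporter that brings very long chain fatty acids into peroxisomes and lies on chromosome 15 (91145871 to 91192007, GRCm38). Its signals were 7.04, 7.51 and 7.06 in UN, against 7.87, 8.27 and 8.10 in NN. The difference was -0.88 (SE 0.16, 95% interval -1.23 to -0.52, unadjusted p = 0.000281).

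Several of the 12 lower genes encode regulators of transcription and growth. Nab2, a corepressor of the EGR factors, read 6.94, 6.51 and 6.87 in UN, against 7.32, 7.37 and 7.58 in NN (difference -0.65, SE 0.14), and its other probe set gave -0.33. Plk3, a polo-like kinase of the stress response, read 6.78, 7.75 and 7.52 in UN, against 8.30, 8.19 and 8.14 in NN (difference -0.86, SE 0.22). Both were lower in each UN animal than in each NN animal. Hhex, a homeobox factor of liver and bile duct development, read 7.39, 6.96 and 7.15 in UN, against 7.56, 7.76 and 7.71 in NN (difference -0.51, SE 0.13). Apobec1, the enzyme that edits apolipoprotein B messenger RNA, read 7.07, 7.12 and 6.93 in UN, against 7.49, 7.75 and 7.47 in NN (difference -0.53, SE 0.12). The amino acid transporter gene Slc43a2 (-0.37), the B cell scaffold gene Bank1 (-0.42) and Mfsd9 (-0.41) had smaller differences. Swsap1 (-0.61) and Pgls (-0.48), an enzyme of the pentose phosphate pathway, were chosen through their dimmer probe sets, and their brighter ones gave -0.16 and -0.08. The others of the 12 were Foxq1 and the dimmer Cish probe set.

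Among the 12 higher genes, Plin5 bears on fat storage. Perilipin 5 coats lipid droplets in tissues that oxidize fat and ties them to mitochondria. Plin5 signals were 6.78, 7.13 and 7.03 in UN, against 6.53, 6.17 and 6.67 in NN, so that the lowest UN animal stood just above the highest NN animal. The difference was 0.52 (SE 0.15, 95% interval 0.18 to 0.87, unadjusted p = 0.00693). The cytokine gene Il17c (0.45), Cln8 of the endoplasmic reticulum (ER) (0.39, with 0.36 from its other probe set), the phosphatase gene Pgp (0.43), Nrros (0.47), Pdlim7 (0.44), Ccdc85c (0.43), the organic anion transporter gene Slco3a1 (0.37), Ms4a4c (0.33) and the T cell receptor segment Trav12-2 (0.43) had differences of similar size. Smarcd1, a subunit of the SWI/SNF chromatin remodelling complex, entered through a dimmer probe set with a difference of 0.79, while its brighter probe set gave -0.23. Cyp2c53-ps completed the 12.

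**Figure D2:**
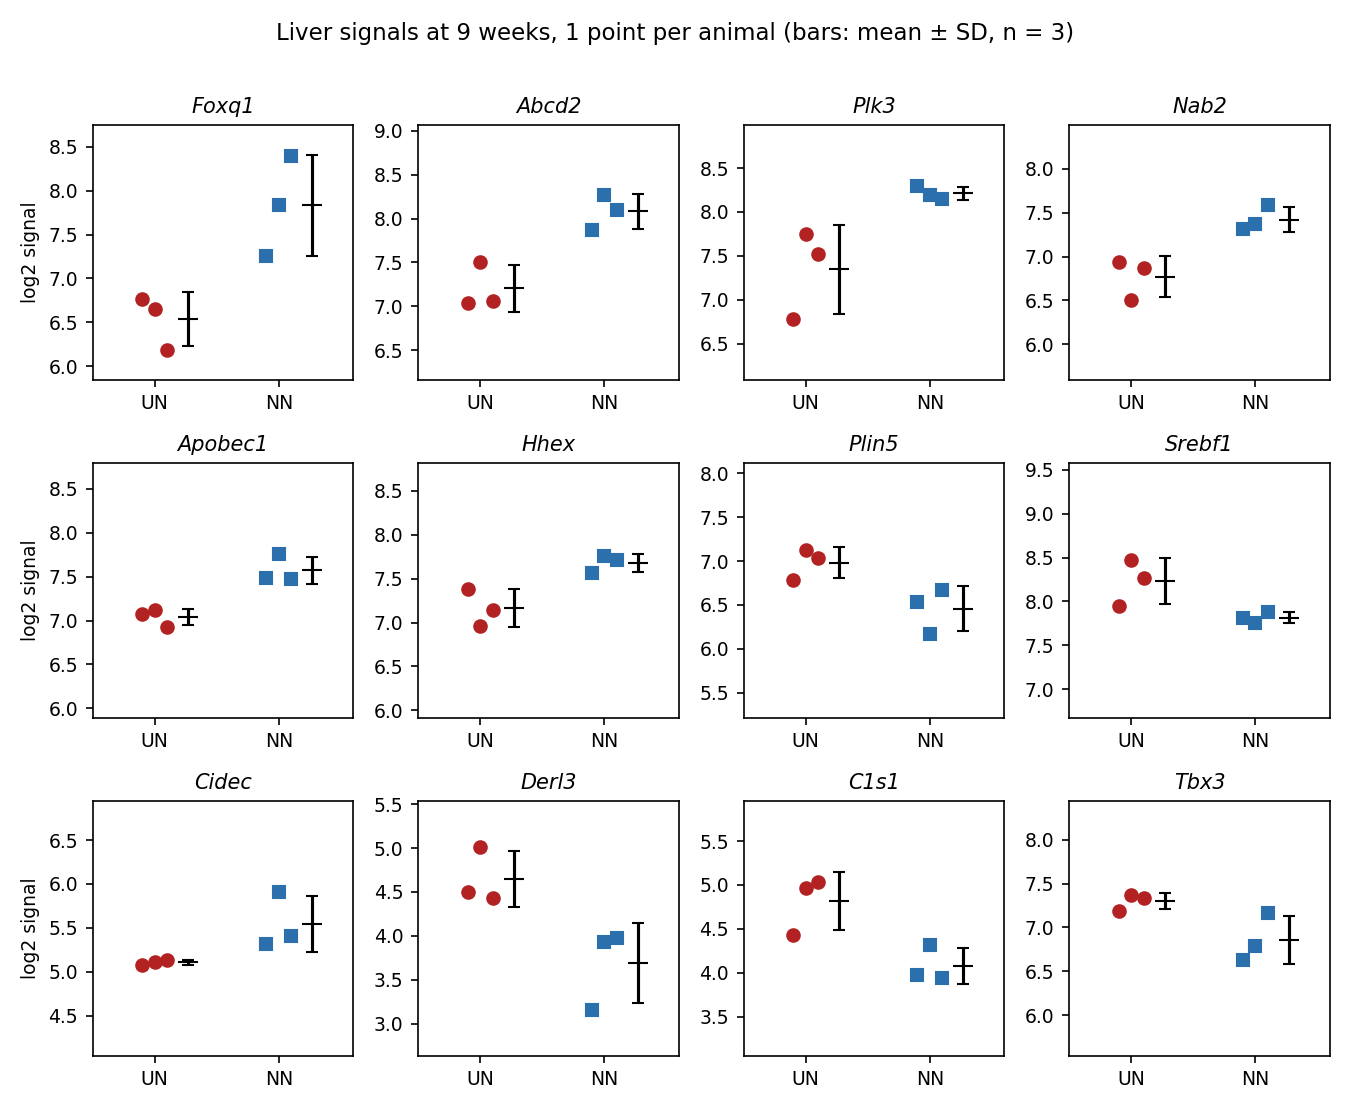
Log2 signal of 12 genes in each of the 3 UN livers (red circles) and 3 NN livers (blue squares) at 9 weeks, with mean ± SD beside them. The panels show the non-overlapping groups of Foxq1, Abcd2 and Plk3, the narrow gap of Plin5, and the nearly equal UN values of Cidec, 5.08 to 5.13.

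In the gene lists below, a call means an unadjusted p under 0.05. The counts per list stand beside 1.76% of all genes called higher and 1.77% called lower. Of 58 probe sets named with such a call, 29 held it in all 6 fits that left out 1 animal and 29 lost it in at least 1, and the median of 29 of the 46 pathway lists changed sign in at least 1 of these fits.

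Genes of lipid synthesis and storage differed little as groups. Of 19 genes of fatty acid synthesis, 1 was higher and 0 were lower at an unadjusted p under 0.05, with a median difference of -0.01, beside -0.00 for all genes. That gene was Srebf1, which encodes the factor that switches fatty acid synthesis on with insulin. Its signals were 7.95, 8.48 and 8.26 in UN, against 7.81, 7.76 and 7.88 in NN, and all UN animals lay above all NN animals (difference 0.42, SE 0.14, unadjusted p = 0.0151). Its targets Fasn and Scd1, the enzymes that build and desaturate fatty acids, had differences of 0.04 and 0.02. Triglyceride synthesis (11 genes, median -0.06) held 1 lower gene, Lpin1, an enzyme that makes diacylglycerol and also acts as a coactivator. Lpin1 read 8.86, 8.95 and 9.45 in UN, against 9.32, 10.05 and 9.41 in NN, with overlapping groups. Its difference of -0.51 was -0.28 without NN replicate 2, and the call was held in 3 of the 6 fits that left out 1 animal. The acyltransferase genes Gpam and Dgat2, which start and finish triglyceride assembly, were at -0.05 and -0.06.

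Among 20 genes of lipid droplets and lipolysis the median difference was 0.02, with 1 higher (Plin5) and 1 lower (Cidec). Cidec promotes the fusion of lipid droplets into larger ones. It read 5.08, 5.11 and 5.13 in UN, against 5.32, 5.91 and 5.41 in NN, and no NN animal was as low as any UN animal. The mean was 5.11 ± 0.03 in UN and 5.54 ± 0.32 in NN (SD, n = 3 each), and the difference was -0.44 (SE 0.15, 95% interval -0.78 to -0.09, limma unadjusted p = 0.0186). Without NN replicate 2 it was -0.25, and the call was held in 5 of the 6 fits that left out 1 animal. Cidea, a related droplet protein gene, read 3.87, 4.07 and 3.72 in UN, against 4.42, 3.55 and 3.61 in NN. These dim signals overlapped, with a difference of 0.03 (SE 0.22, 95% interval -0.46 to 0.51) that took either sign when 1 animal was left out. Plin2, the main droplet coat gene of hepatocytes, was at -0.12. The 10 genes of PPARG and fatty acid uptake had a median of -0.04, with Pparg itself at 0.12 and the fatty acid transporter gene Cd36 at -0.23, and 1 lower gene, which was Cidec again.

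Genes for burning fat and making glucose showed a single call between them. Of 22 genes of fatty acid oxidation and ketogenesis, 0 were higher and 1 was lower, with a median of -0.03, and the medium-chain dehydrogenase gene Acadm stood at 0.02. The lower gene was Ppargc1a, a coactivator of mitochondrial and fasting genes, at -0.40 with an unadjusted p that rounds to 0.05, and at -0.24 without NN replicate 1. It is also the 1 lower gene among 17 of gluconeogenesis and insulin response (median -0.09, 0 higher). There G6pc and Pck1, the enzymes that release glucose and start its synthesis, were at 0.59 and 0.24 and did not reach an unadjusted p under 0.05. The 58 nuclear genes of the respiratory chain held 0 higher and 0 lower. The 10 transcripts of the mitochondrial genome also held 0 higher and 0 lower, with a median of 0.03, and all 10 were above 0. Their mean signals ran from 10.69 in ND6 to 12.67, where the highest value on the arrays was 12.89. The differences lay between 0.01 and 0.06 except ND6 at 0.20 (SE 0.10), where all UN animals lay above all NN animals.

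Cholesterol synthesis had the list median farthest from 0 among the 46 pathways. Of 17 genes 15 had a difference below 0 and 2 above it, with a range of -0.48 to 0.05 and a median of -0.24. Only Dhcr7, the enzyme of the last step to cholesterol, was called: it read 8.56, 8.23 and 8.75 in UN, against 8.90, 8.70 and 8.96 in NN (difference -0.34, unadjusted p = 0.0439; -0.20 without UN replicate 5). Msmo1 and Sqle, enzymes of the middle of the pathway named after their values were seen, show how the animals were spread. Msmo1 read 8.67, 8.02 and 8.93 in UN, against 8.59, 9.18 and 9.29 in NN, and Sqle read 7.64, 7.18 and 8.14 in UN, against 7.43, 8.28 and 8.43 in NN. In both genes UN replicate 5 was the lowest animal and NN replicate 3 the highest. Over the list UN replicate 5 was the lowest in 11 of 17 genes and NN replicate 3 the highest in 14. No gene of the list separated the groups. Without UN replicate 5 the median was -0.08, and without NN replicate 1 it was -0.42.

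Bile acid genes held 3 calls, beside 1.76% of all genes called higher and 1.77% lower. Of 15 synthesis genes 1 was higher: Cyp7b1, which opens the alternative pathway of bile acid synthesis, read 9.90, 9.56 and 10.04 in UN, against 9.18, 9.82 and 8.95 in NN (difference 0.52, SE 0.21), with overlap through NN replicate 2 and a difference of 0.34 without NN replicate 3. Of 18 genes of bile acid transport and sensing 2 were lower, the organic anion carrier Slco1a4 and the bile acid receptor Gpbar1. Slco1a4 read 8.41, 8.50 and 8.33 in UN, against 9.01, 8.56 and 8.83 in NN, with a difference of -0.39 (unadjusted p = 0.0159), and Gpbar1 had -0.35, or -0.23 without UN replicate 4. The sinusoidal bile acid importer gene Slc10a1 was at -0.07 and the canalicular exporter gene Abcb11 at 0.13.

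The response to growth hormone was read next. Of 16 genes 0 were higher and 1 was lower, with a median of -0.11. The lower one was Socs3, a suppressor of cytokine signalling, with 4.73, 4.89 and 4.62 in UN, against 5.14, 5.02 and 5.11 in NN (difference -0.34, SE 0.11, unadjusted p = 0.0129), and its groups did not overlap. Socs2, the family member most tied to growth hormone and named after its values were seen, read 7.05, 5.18 and 5.33 in UN, against 6.67, 7.11 and 6.16 in NN. UN replicates 5 and 6 were the lowest animals and UN replicate 4 was among the highest, with a difference of -0.79 (SE 0.44) that did not reach an unadjusted p under 0.05. The bright STAT5 target Igf1, the main growth factor secreted by the liver, was at -0.07 and the receptor gene Ghr at -0.03.

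Genes that differ between male and female livers in the mouse follow the same hormone. Of 24 male-biased genes 18 lay above 0, with a median of 0.07, and 2 were higher and 0 lower at an unadjusted p under 0.05. The median was -0.02 without NN replicate 3. The called genes were the urinary protein gene Mup21 (0.43, and 0.28 without UN replicate 6) and Cyp7b1, given above with the bile acid genes. Of 24 female-biased genes (median -0.05) 1 was higher and 2 were lower. The proton pump subunit gene Atp6v0d2 read 4.33, 3.90 and 4.0 in UN, against 4.89, 4.45 and 4.87 in NN (difference -0.66, unadjusted p = 0.00218). The steroid hydroxylase gene Cyp17a1 read 6.39, 6.14 and 6.05 in UN, against 8.15, 6.29 and 6.89 in NN (difference -0.92, SE 0.37). Its groups overlapped, and without NN replicate 1 the difference was -0.40. The higher one was the organic anion transporter gene Slc22a27 (0.50, and 0.27 without NN replicate 1). Cyp2b9, a female-biased cytochrome P450 gene, was among the 10 most variable genes, with 5.47, 6.72 and 5.25 in UN, against 5.08, 6.42 and 8.66 in NN.

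The Cyp2 family, enzymes that oxidize drugs and steroids, held 0 higher and 0 lower of 32 genes, and NN replicate 1 was the lowest animal in 19 of them. Cyp1 and Cyp3 genes with their nuclear receptors held 0 of 14 in either direction, with a median of 0.13. Cyp2e1, one of the brightest, stood at 0.02.

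Genes of protein folding stress were highest in 1 UN animal. The 28 genes of the ER stress response (the unfolded protein response) had a median difference of 0.14, and 22 of them lay above 0. At an unadjusted p under 0.05, 1 was higher and 0 were lower. That gene was Derl3, which helps to pull misfolded proteins out of the ER for degradation. Its signals, 4.50, 5.01 and 4.43 in UN, against 3.16, 3.93 and 3.97 in NN, did not overlap, and the difference was 0.96 (SE 0.23, 95% interval 0.45 to 1.47, unadjusted p = 0.00199). Creld2 and Sdf2l1, ER stress genes named after their values were seen, stood out in a single liver. Creld2 read 8.69, 9.88 and 8.66 in UN, against 8.86, 8.37 and 8.57 in NN. Sdf2l1 read 7.49, 8.76 and 7.63 in UN, against 7.54, 7.18 and 7.38 in NN. The value that stood apart in each was UN replicate 5. It was the highest animal in 19 of the 28 genes, and without it the median difference was 0.01.

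The heat shock genes, which encode the chaperones of the cytosol, shared this pattern. Of 12 genes 11 lay above 0, with a median of 0.24, and 0 were higher and 0 lower at an unadjusted p under 0.05. Hspa1b, the inducible HSP70 gene, read 5.89, 8.66 and 7.68 in UN, against 6.11, 6.17 and 7.67 in NN, and Hsph1, a larger chaperone of the family, read 7.20, 8.66 and 7.75 in UN, against 7.30, 7.17 and 7.88 in NN. UN replicate 5 was the highest animal in 11 of the 12 genes, and without it the median was 0.02. The same animal was the lowest for most genes of cholesterol synthesis. What the 3 patterns share beyond this animal was not tested.

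**Figure D3:**
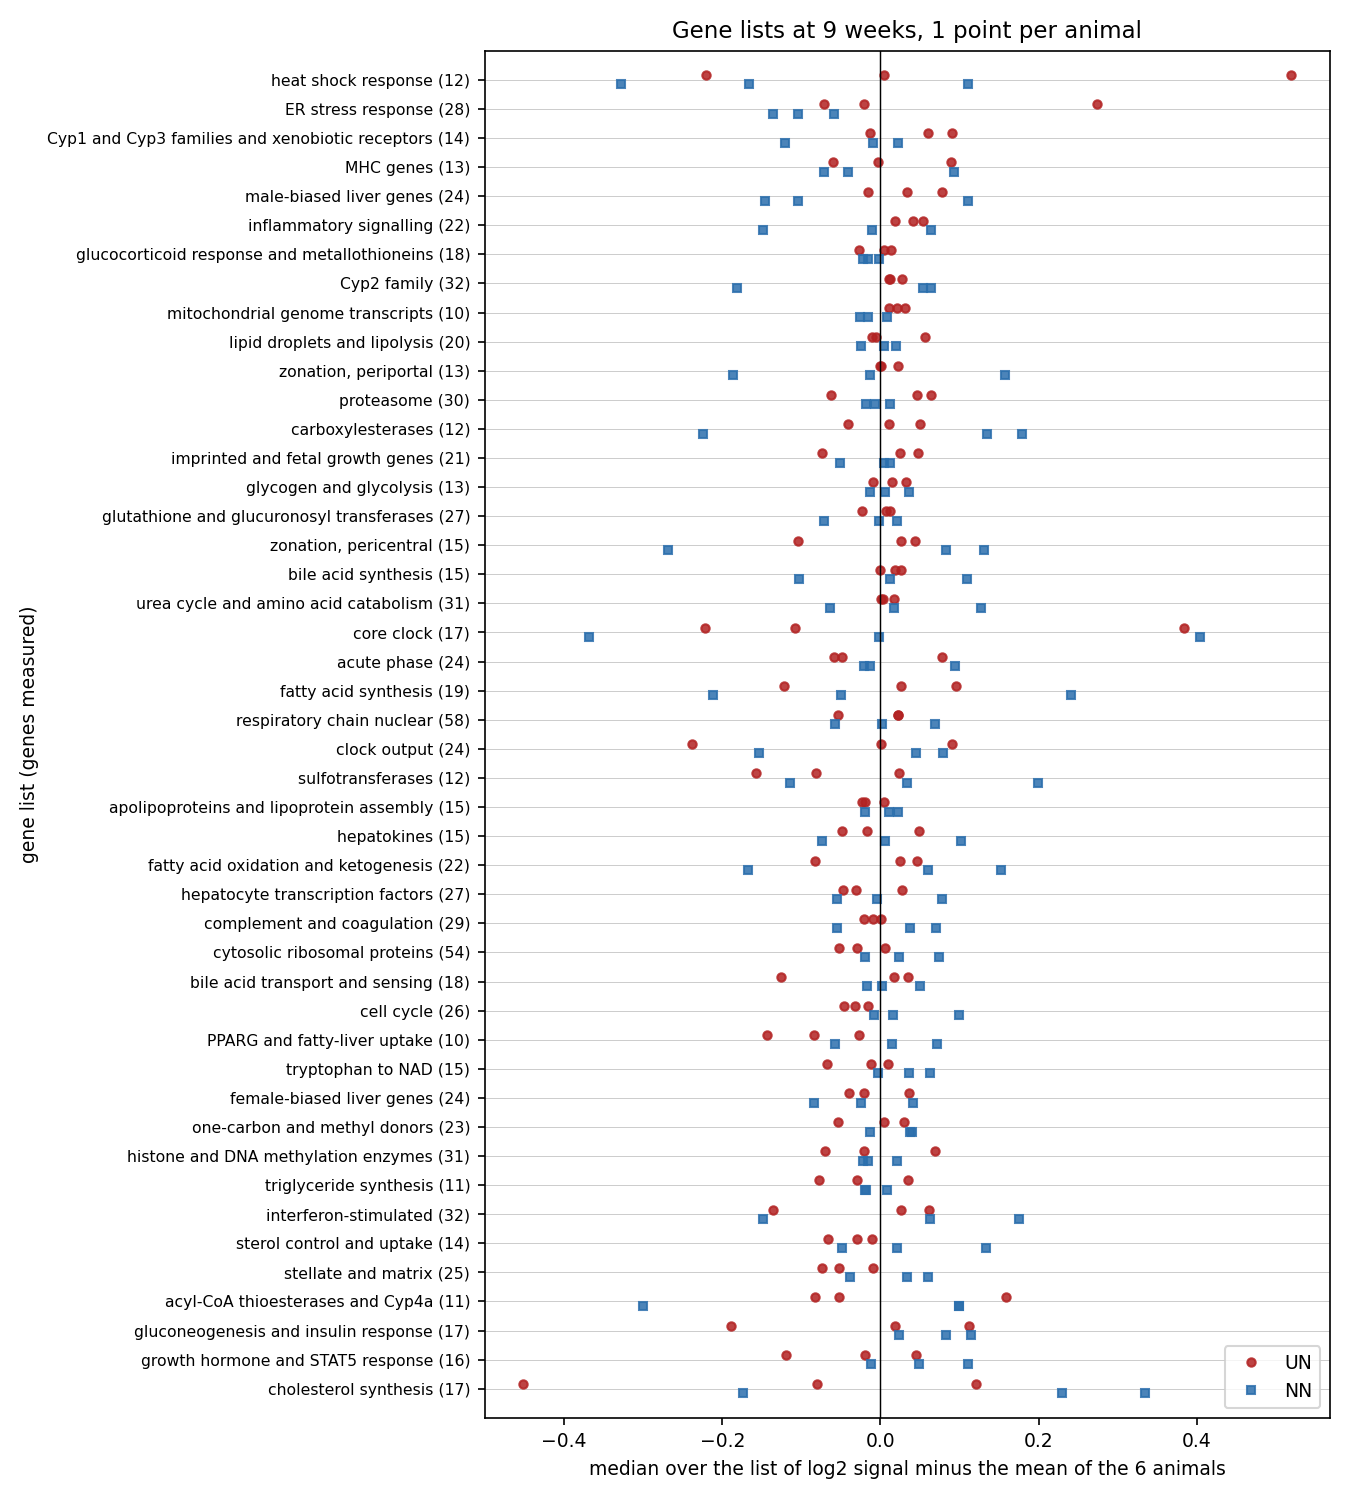
Median over each of 46 gene lists of the log2 signal minus the mean of the 6 animals, with 1 red circle per UN liver and 1 blue square per NN liver and the number of genes in brackets; lists run from the highest to the lowest median difference of UN minus NN. Most points lie close to 0, and UN replicate 5 is the red circle at 0.52 for heat shock, at 0.27 for ER stress and at -0.45 for cholesterol synthesis.

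Glucocorticoid genes and metallothioneins (18 genes, median 0.03) held 1 higher and 1 lower. Tsc22d3, a glucocorticoid-induced leucine zipper gene, read 6.06, 6.78 and 6.61 in UN, against 6.04, 5.43 and 6.09 in NN (difference 0.62, unadjusted p = 0.018). The metal-binding Mt1 read 7.81, 6.46 and 6.98 in UN, against 8.48, 7.83 and 7.74 in NN (difference -0.94, SE 0.31, unadjusted p = 0.0134). In both the groups overlapped through UN replicate 4. Tsc22d3 was at 0.41 without NN replicate 2, and Mt1 at -0.62 without UN replicate 5. Among 13 genes of glycogen and glycolysis the 1 call was Ppp1r3c, which targets a phosphatase to glycogen, at 0.59 and, without NN replicate 2, at 0.37.

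The circadian clock was where the animals differed most among themselves. The SD between animals of a group was 0.59 at the median over 17 core clock genes, the largest of the 46 pathways, and 0.39 over 24 clock output genes, against 0.15 over all named probe sets. Between groups the core clock held 0 higher and 0 lower genes, with differences of -0.44 to 0.12. Dbp, an output factor that peaks toward the evening in mouse liver, read 6.74, 6.60 and 8.96 in UN, against 6.75, 9.66 and 7.22 in NN. Arntl, the positive arm of the clock (BMAL1), read 7.38, 7.18 and 5.10 in UN, against 8.01, 4.96 and 7.02 in NN. UN replicate 6 and NN replicate 2 were high for Dbp and low for Arntl, the opposite of the other 4 animals.

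Other clock genes divided the animals in the same way. Nr1d1, a repressor of Arntl, read 8.17, 7.74 and 8.60 in UN, against 7.19, 9.05 and 8.17 in NN. Ciart, a repressor named after its values were seen, read 4.50, 4.65 and 5.91 in UN, against 4.50, 6.56 and 4.43 in NN. Per3, named likewise, read 4.63, 4.99 and 5.77 in UN, against 4.46, 6.64 and 5.10 in NN. UN replicate 6 and NN replicate 2 together were the highest pair of the 6 in 10 core clock genes and the lowest pair in 4, 14 of 17 in all (82.4%). They were so in 13 of 24 clock output genes (54.2%) and in 3047 of 22180 genes (13.7%). This pair was picked after the clock values were seen, and the labels give no time of day for the dissection. Without both animals the count past the study's thresholds was 11 and the count at an adjusted p under 0.05 was 0.

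**Figure D4:**
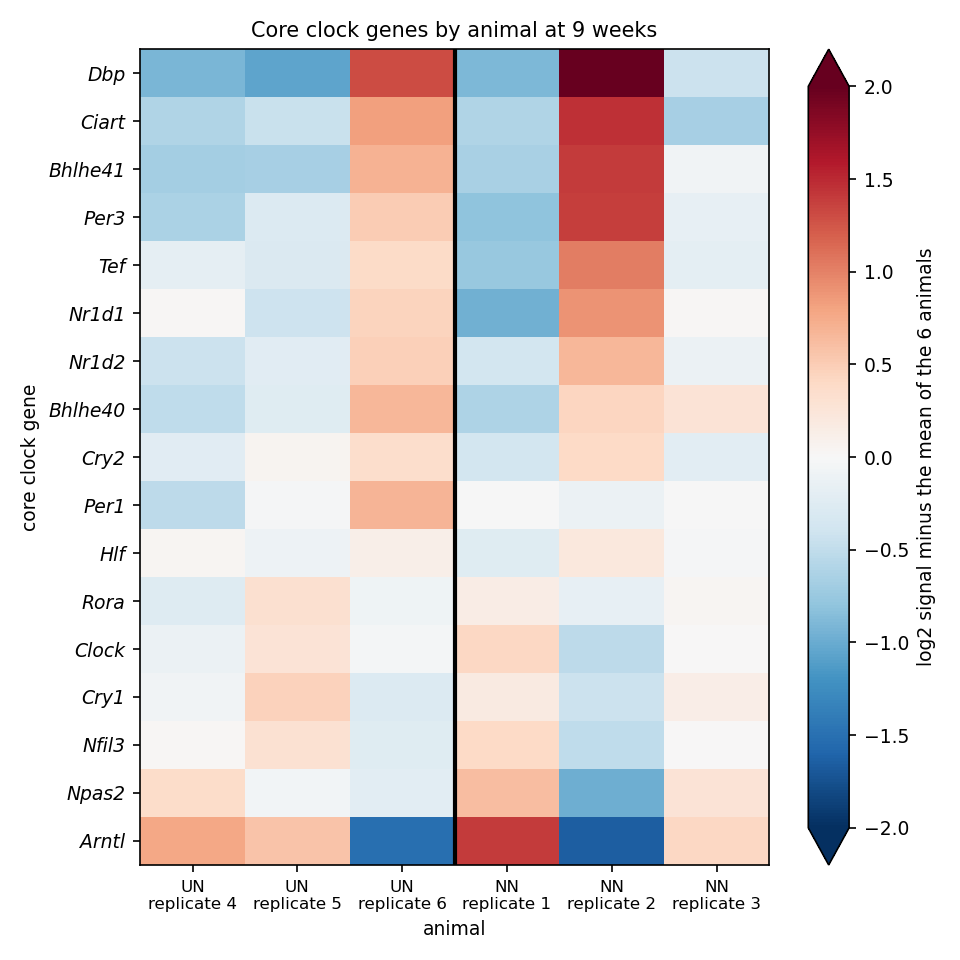
Log2 signal minus the mean of the 6 animals (colour scale) for 17 core clock genes (rows) in the 3 UN and 3 NN livers at 9 weeks (columns). UN replicate 6 and NN replicate 2 share warm colours from Dbp to Bhlhe40 and a blue Arntl, on either side of the line between UN and NN.

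Several of the 10 genes with the largest spread within groups followed NN replicate 2. Rgs16, a regulator of G protein signalling that responds to feeding in liver, read 5.44, 4.81 and 5.36 in UN, against 4.19, 9.32 and 5.18 in NN. The interferon-induced Gbp11 read 6.09, 4.95 and 5.70 in UN, against 4.92, 8.71 and 7.29 in NN. The single high value of Rgs16 came from NN replicate 2, and that of Gbp11 did too, with NN replicate 3 next. Dbp, Arntl, Hspa1b and Cyp2b9, given above, and Gadd45g, Arrdc3, Mup-ps12 and Wee1 completed this set, with SDs within groups of 1.17 to 1.94.

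The promoters of 6 genes are shown as examples of the sequence that clock, STAT and stress factors are known to bind near genes described above. The motifs were the E-box CACGTG and the D-box TTATGNAA of the clock, the STAT motif TTCNNNGAA, the heat shock element (GAA, TTC and GAA with gaps of 2 bases) and the ER stress element (CCAAT and CCACG with 9 bases between). Each is a RefSeq window of 300 bases across a gene start, most of it before the start (GRCm38.p6), read in the direction of the gene, and the capitals mark the named motif on either strand. The genes were chosen after their values were seen, as members with the motif.
Ciart, chr3:95882179-95882478, minus strand, E-boxes in capitals.
Ciart: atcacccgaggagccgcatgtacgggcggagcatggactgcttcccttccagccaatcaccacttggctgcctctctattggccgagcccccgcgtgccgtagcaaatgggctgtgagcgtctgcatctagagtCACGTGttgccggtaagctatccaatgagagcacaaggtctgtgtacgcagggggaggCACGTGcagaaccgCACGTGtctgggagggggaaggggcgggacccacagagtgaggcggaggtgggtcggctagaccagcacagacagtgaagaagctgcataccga
Per3, chr4:151044616-151044915, minus strand, D-boxes in capitals.
Per3: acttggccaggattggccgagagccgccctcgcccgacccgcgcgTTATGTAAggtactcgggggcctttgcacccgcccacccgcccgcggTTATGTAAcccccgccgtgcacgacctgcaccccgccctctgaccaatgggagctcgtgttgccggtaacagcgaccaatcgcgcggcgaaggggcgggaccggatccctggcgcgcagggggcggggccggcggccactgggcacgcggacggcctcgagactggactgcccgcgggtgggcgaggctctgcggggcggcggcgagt
Cish, chr9:107296409-107296708, plus strand, STAT motifs in capitals.
Cish: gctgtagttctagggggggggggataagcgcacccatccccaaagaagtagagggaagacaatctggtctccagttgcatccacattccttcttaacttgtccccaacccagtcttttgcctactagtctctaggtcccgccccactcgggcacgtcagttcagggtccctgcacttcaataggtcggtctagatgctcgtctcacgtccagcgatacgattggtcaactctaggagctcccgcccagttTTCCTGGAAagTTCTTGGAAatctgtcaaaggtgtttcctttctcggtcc
Derl3, chr10:75893148-75893447, plus strand, ER stress element in capitals as its reverse complement.
Derl3: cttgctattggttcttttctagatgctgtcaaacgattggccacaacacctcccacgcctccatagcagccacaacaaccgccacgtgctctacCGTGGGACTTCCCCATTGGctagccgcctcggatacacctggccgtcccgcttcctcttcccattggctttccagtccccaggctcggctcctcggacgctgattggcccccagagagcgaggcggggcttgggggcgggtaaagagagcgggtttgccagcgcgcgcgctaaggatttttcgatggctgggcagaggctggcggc
Creld2, chr15:88819396-88819695, plus strand, ER stress element in capitals as its reverse complement.
Creld2: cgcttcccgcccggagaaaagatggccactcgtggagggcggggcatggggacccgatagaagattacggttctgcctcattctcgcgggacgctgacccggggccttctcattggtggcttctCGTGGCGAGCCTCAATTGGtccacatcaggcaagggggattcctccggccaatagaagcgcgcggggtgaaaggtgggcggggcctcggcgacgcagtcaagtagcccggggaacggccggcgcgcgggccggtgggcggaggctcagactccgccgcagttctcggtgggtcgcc
Hsph1, chr5:149636287-149636586, minus strand, heat shock element in capitals as its reverse complement.
Hsph1: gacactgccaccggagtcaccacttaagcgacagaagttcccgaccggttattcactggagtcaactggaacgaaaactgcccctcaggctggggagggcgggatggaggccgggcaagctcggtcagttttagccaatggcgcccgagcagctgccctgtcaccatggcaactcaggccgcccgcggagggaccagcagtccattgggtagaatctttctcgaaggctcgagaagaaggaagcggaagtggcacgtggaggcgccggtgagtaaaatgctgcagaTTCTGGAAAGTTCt

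The letters were searched on both strands in 32851 RefSeq promoters of this length. Lists were counted by gene and the background by promoter. A gene can have several starts, such as Hsph1 with 2, so that these shares are not strictly comparable. The E-box was in 5 of the 16 core clock genes with a promoter and in 7.15% of all promoters, and the D-box in 2 of 16, against 3.38% of all. The 3 E-boxes of Ciart began at -116, -58 and -44 from the start, and the D-boxes of Per3 at -205 and -158. The STAT motif was in 4 of 14 growth hormone genes and in 8.3% of all promoters, and both copies in Cish, at 1 and 12, lay just after the start. The ER stress element was in 8 of 26 ER stress genes and 0.119% of all promoters, at -156 in Derl3 and at -126 in Creld2. The heat shock element was in 4 of 11 heat shock genes and 0.603% of all promoters, at 37 in Hsph1. The capitalised motifs of a gene do not overlap each other, and CACGTG also occurs, in lower case, in Derl3 and Hsph1. A match is a stretch of letters, and binding was not measured.

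Genes of inflammation and immunity held few calls. Among 22 genes of inflammatory signalling 0 were higher and 0 lower at an unadjusted p under 0.05. In 6 of them every UN animal lay above every NN animal (Icam1, Cxcl1, Relb, Tnf, Il6 and Ccr2, cytokine and signalling genes with differences of 0.08 to 0.25), beside 4.18% of all genes, and in 1, Nfkb2, below. Mean signals of the list ran from 2.13 to 7.42, with a median of 4.64 beside 4.51 for all genes, and Ccr2 averaged 3.49 in UN and 3.41 in NN. The median difference of the list, 0.06, became -0.07 without NN replicate 2. Of 32 interferon-stimulated genes 1 was higher, Ifi27l2b, with 3.77, 3.78 and 3.45 in UN, against 3.19, 3.44 and 3.27 in NN (difference 0.37). Complement and coagulation held 1 higher of 29, the complement protease gene C1s1. C1s1 read 4.43, 4.97 and 5.04 in UN, against 3.98, 4.31 and 3.94 in NN, a difference of 0.74 (SE 0.18, unadjusted p = 0.00194) between groups that did not overlap. The acute phase gene Saa3 was at 0.31 (0.20 without NN replicate 3) and the histocompatibility gene H2-Q1 at -0.31, each the 1 call of its list.

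Imprinted and fetal growth genes and genes of chromatin enzymes had medians near 0. The 21 imprinted and fetal growth genes, which are expressed from 1 parental copy or belong to the fetal liver, held 0 higher and 0 lower, with a median of 0.01. They ran from Ndn at -0.18 to Kcnq1ot1 at 0.29, and the fetal growth factor gene Igf2 was at 0.22. The 31 genes of histone and DNA methylation enzymes held 0 and 0 as well, with a median of -0.05. Among 27 hepatocyte transcription factors 1 was higher and 1 was lower. The lower was Foxq1, and the higher was Tbx3, a T-box factor expressed around the central veins, with 7.19, 7.37 and 7.34 in UN, against 6.63, 6.79 and 7.16 in NN (difference 0.44, SE 0.15, unadjusted p = 0.0133). The 54 cytosolic ribosomal protein genes (median -0.03) held 1 higher, Rps29 (0.27), and 2 lower, Rps27 (-0.43) and Rpl5 (-0.36). Of 12 sulfotransferase genes 2 were lower, beside 1.77% of all genes: Sult1b1 (-0.37, and -0.24 without NN replicate 3) and Sult1c2 (-0.33). Of 26 cell cycle genes 1 was lower, the mitotic kinase gene Aurka (-0.42).

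Markers of liver cell types were set beside these values. The 12 hepatocyte markers were bright (8.89 to 12.74) with a median difference of -0.00. The 14 macrophage markers had a median of -0.16, with 1 above 0 and 1 lower at an unadjusted p under 0.05, Timd4 of resident macrophages, and the median was -0.07 without NN replicate 1. Lymphocyte (16 genes, 0.01), endothelial (12, -0.07) and stellate cell markers (12, -0.03) held no call in either direction, and neither did 7 cholangiocyte markers (0.12) or 2 erythroid markers (0.02). Neutrophil and monocyte markers had 1 lower of 12, and the adipocyte and muscle list and the pancreas list had 1 higher of 10 each, at dim signals. In whole liver RNA fewer cells of a type and less RNA per cell cannot be told apart, and the part of these markers in the other results was not tested.

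The 20 genes called at 22 weeks were then traced back to 9 weeks. At 22 weeks UN-Veh and NN-Veh (4 livers each) had been on HFD, with vehicle for the last weeks. Of 23521 probe sets with 1 symbol, 21 (0.0893%) passed both the study's thresholds and an adjusted p under 0.05. They stand for these 20 genes, with a dimmer probe set of Gm12718 beside them. The fit also held the TUDCA-treated livers of that age (UN-TU and NN-TU), so that its SEs and p-values draw on their spread too. The 14 genes higher in UN-Veh, with a median difference of 1.21 at 22 weeks, had a median of 0.07 at 9 weeks (-0.44 to 0.35). The 6 lower ones, at -1.53, had -0.06 (-0.36 to 0.13). Because all were chosen for a difference of at least 2-fold at 22 weeks, smaller values at 9 weeks are favoured by the choice. At 9 weeks 10 of the 14 lay above 0 and 5 of the 6 below, beside 10809 of all 22180 genes above 0 and 11371 below. Of the 20, 2 reached an unadjusted limma p under 0.05 at 9 weeks, beside 3.53% of all genes. Themis, a T cell signalling gene, read 3.80, 3.75 and 3.78 in UN, against 3.22, 3.62 and 3.44 in NN, in the direction of 22 weeks. The other was Cidec, which ran the other way.

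Whether the UN effect differed between ages was tested by the interaction of age and prenatal diet. At an adjusted p under 0.05, limma called 3 of 25341 probe sets (0.0118%) between 9 and 22 weeks: Cidea, Cidec and Gpc1. The Cidea effect at 9 weeks minus that at 22 weeks was -3.27 (adjusted p = 0.00102). Cidea averaged 7.79 ± 0.41 in UN-Veh and 4.49 ± 0.38 in NN-Veh (SD, n = 4 each), while at 9 weeks all 6 livers lay between 3.55 and 4.42. Its difference at 22 weeks was 3.29 (SE 0.44).

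For Cidec the difference of effects was -2.95 (adjusted p = 0.00168). The UN-Veh livers read 8.89, 8.79, 9.01 and 9.18 at 22 weeks, against 5.70, 6.68, 6.29 and 7.16 in NN-Veh, a difference of 2.51 (SE 0.47). The sign was opposite at 9 weeks, when UN lay below NN. Gpc1, a cell surface heparan sulfate proteoglycan gene, read 5.27, 5.43 and 4.94 in UN, against 5.32, 5.20 and 5.65 in NN, at 9 weeks. At 22 weeks it read 7.23, 7.03, 7.27 and 7.31 in UN-Veh, against 5.99, 6.06, 6.19 and 6.06 in NN-Veh. Its difference of effects was -1.31 (adjusted p = 0.0104).

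Apoa4, an apolipoprotein gene induced in fatty liver, was 1 of the genes with no call at 9 weeks, at -0.21 (SE 0.19), beside 1.41 (SE 0.19) at 22 weeks. The acute phase gene Orm3 was at 0.31 (SE 0.17) and 1.69 (SE 0.21). On the lower side Zbtb16, a zinc finger factor, was at -0.02 (SE 0.24) and -1.75 (SE 0.21), and the estrogen sulfotransferase gene Sult1e1 at 0.13 (SE 0.15) and -1.94 (SE 0.25). Igfbp1 was so variable at 9 weeks (6.64, 9.43 and 7.87 in UN, against 9.00, 7.70 and 7.64 in NN) that its difference of -0.13 had an SE of 0.60, and one of the size seen at 22 weeks (-1.05) could not be detected.

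The interaction calls changed with the arrays in the fit: with all 30 arrays in 1 fit there were 0, and without NN replicate 1 of the 9-week group there were 64. Between 9 and 17 weeks limma called 0 differences of effect (0%), with 622 at an unadjusted p under 0.05. The count was 0 also without UN replicate 14 of 17 weeks, an array that stands apart. It does not show that the effect stayed the same. Cidea and Cidec, called between 9 and 22 weeks, were at 1.67 (SE 0.42) and 1.46 (SE 0.52) at 17 weeks, in a fit that held UN replicate 14. Their SEs at 9 weeks were 0.22 and 0.15. Age, HFD, cohort and, at 22 weeks, vehicle dosing change together between these ages and cannot be told apart.

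**Figure D5:**
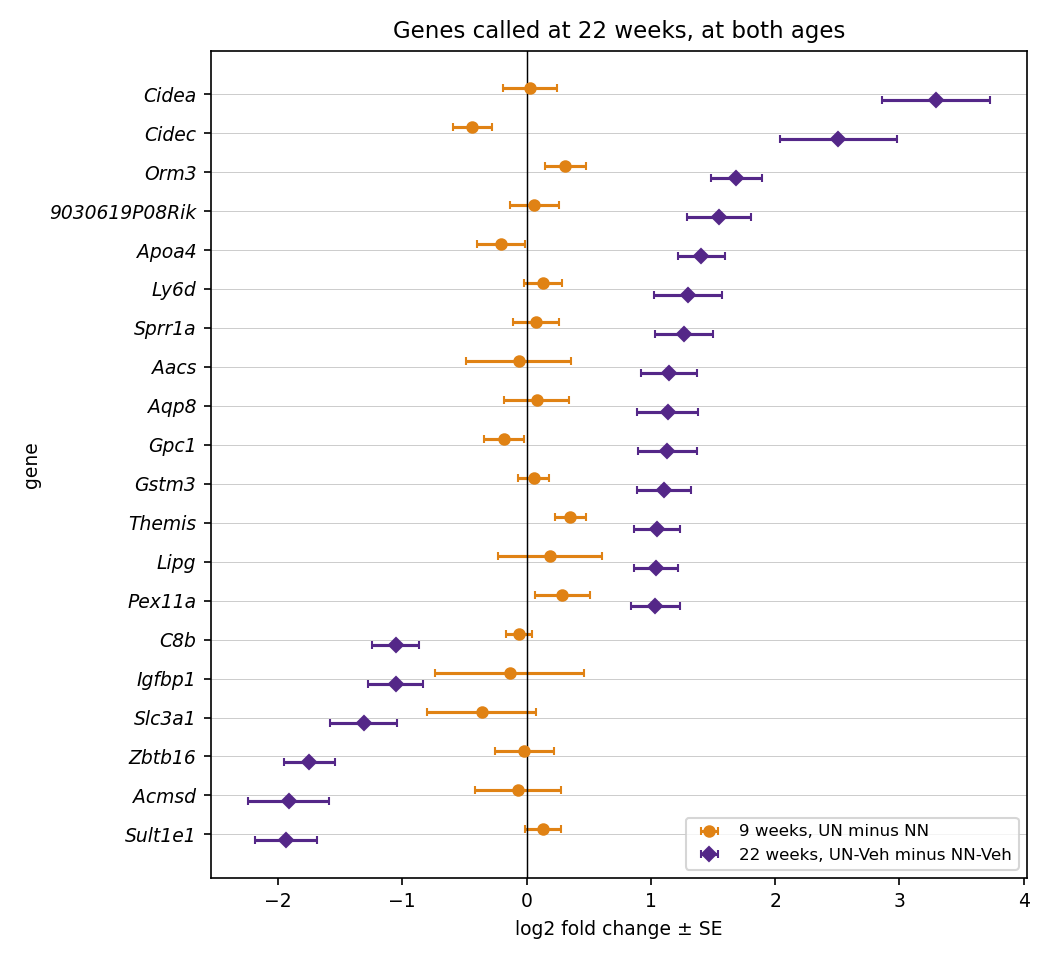
Log2 fold change ± SE of the 20 genes called at 22 weeks, at 9 weeks (UN minus NN, orange circles) and at 22 weeks (UN-Veh minus NN-Veh, purple diamonds). The 9-week values lie between -0.44 and 0.35. The 22-week values lie beyond 1 on either side because the genes were chosen by that rule.

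The study's remaining genes of interest were mostly dim at 9 weeks. Ly6d, Sprr1a and Orm3 had differences of 0.14, 0.08 and 0.31 with overlapping groups, and Sprr1a took either sign when 1 animal was left out. Of the 9 genes, 2 were higher (Themis and Ifi27l2b) and 2 lower (Cidec and Cyp17a1) at an unadjusted limma p under 0.05, beside 3.53% of all genes. These 9 were chosen by the study on arrays of this series, those of 9 weeks among them, so that their count is not independent of the data.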

How the data were processed

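The authors extracted total RNA from liver, labelled it and hybridized it to Affymetrix arrays for mouse genes, and computed the table in Affymetrix Expression Console, per the labels. The deposited values are log2 signals per probe set, summarized and normalized by the authors; the software version and the summarization are not given in the sources used here, and raw scans were not used here. Of 41345 probe sets, 23521 carry 1 symbol, 1820 several and 16004 none; 23328 of the first matched RefSeq (GRCm38) by gene identifier and 0 symbols differed. Of the genes, 1082 had several probe sets, and the one brightest over the 30 arrays was used.

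UN was compared with NN with limma 3.58.1 (lmFit, eBayes; R 4.3.3) on the 6 arrays of 9 weeks, with Benjamini-Hochberg adjustment across the named probe sets. The 22-week fit held the 4 groups of that cohort: UN-Veh, NN-Veh and the TUDCA-treated UN-TU and NN-TU. The interaction fits held the 9-week groups with UN and NN of the later age. Named were probe sets past the study's thresholds, the 12 higher and 12 lower genes of smallest p above the median signal of 4.45 (without predicted genes, small RNAs and olfactory receptors), at most 6 genes per list (first those with p under 0.05, then the brightest), the study's 9 genes of interest, the 10 genes of largest residual SD and the genes called at 22 weeks. The comparison, the 60 gene lists (46 of pathways) and the tests were chosen with earlier results of these data known. A list is described by its counts and median only. The script was tested on simulated data. Promoters came from RefSeq. Plots were made in matplotlib 3.10.9 under Python 3.11.15.

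Alternatives were the methods' analysis of variance, Tukey biweight averages with it, all 30 arrays in 1 fit, array weights, robust estimation with a variance trend, the brighter probe sets, all probe sets, a second quantile normalization, medians set equal and each animal left out in turn. The number of arrays limits the precision. Array strip and scan batch are not given in the sources used here, so no value within batches could be had.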

Additional observations from a re-analysis of the deposited data

Results flagged for a closer look

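The UN effect differed between 9 and 22 weeks for 3 genes by the interaction test. The log2 fold change of UN minus NN at 9 weeks, less that of UN-Veh minus NN-Veh at 22 weeks, was -3.27 for Cidea, -2.95 for Cidec and -1.31 for Gpc1, with limma adjusted p of 0.00102, 0.00168 and 0.0104. In Cidea of UN-Veh at 22 weeks, 1 animal at 7.17 lay far below the other 3 (7.94 to 8.04); 6 groups of 4 animals were examined for such a gap, and chance gives one in about 1 of 20 groups. Among the 16004 probe sets without a gene name, which the comparison leaves out, 19 were higher and 35 lower in UN past the study's thresholds (0.337%), fitted over all probe sets of the table. Of these 54, 32 had a mean signal below 4.45, the median of named probe sets, as did 65.0% of all unnamed ones. In a limma fit over all of them together with the named ones, 0 unnamed probe sets had an adjusted p under 0.05, and 954 (5.96%) had an unadjusted p under 0.05.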

How the results depend on the processing

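No probe set had an adjusted p under 0.05 under any alternative run. The 4 probe sets past the study's thresholds became 2 with the methods' analysis of variance, 7 with array weights and 57 with all probe sets of the table, and the cause was not tested except that the last adds probe sets. Leaving out 1 animal gave 4 to 17: 11 without UN replicate 4, 6 without UN replicate 5, 4 without UN replicate 6, 12 without NN replicate 1, 17 without NN replicate 2 and 15 without NN replicate 3. Without both UN replicate 6 and NN replicate 2, chosen after seeing the data, it was 11. The 914 probe sets at an unadjusted p under 0.05 became 509 with all 30 arrays, 407 in the brighter part, which tests fewer probe sets, and 1614 with all probe sets, and ranged from 809 to 1182 with 1 animal left out. The 3 interaction calls between 9 and 22 weeks became 0 with all 30 arrays and 6 in the brighter part. With 1 animal left out they ranged from 3 to 64. There were 64 without NN replicate 1, 6 without UN replicate 4 or NN replicate 2, and 5 without UN replicate 5 or NN replicate 3, all of 9 weeks. At 22 weeks there were 6 without UN-Veh replicate 23 and 7 without NN-Veh replicate 18. Between 9 and 17 weeks the count stayed at 0. Of the values of named genes under alternatives, 779 stayed on the same side of an unadjusted p of 0.05, 215 lost the call and 3 gained it. The sign changed in 9 values of 3 genes without a call: Rgs16 (0.52 without NN replicate 2), Cidea (-0.13 without NN replicate 2) and Sprr1a (-0.06 without NN replicate 1). Of list medians 562 moved by less than the spread between animals and 38 by more. No paired analysis was possible because the replicate numbers are not shared between groups.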
